A study of Mus musculus with 12 samples.

Results

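Expression of 7 genes of cholesterol synthesis was followed through the weeks after stroke in sorted mouse astrocytes. They were taken by symbol from the gene count table and are 7 of its 15774 genes: Hmgcs1, Fdft1, Sqle, Lss, Hsd17b7 and Dhcr7, which encode enzymes, and Srebf2, which encodes a transcription factor. The source tissue was cerebral cortex, the animals were C57BL/6J mice labelled wild type, and the cells were isolated by fluorescence-activated sorting. In the stroke groups the distal middle cerebral artery was tied off permanently and both common carotid arteries were closed for 7 min. Sham animals had a lesion of the skull surface and neither occlusion. Sham and 5 times after stroke, namely days 1, 3, 7, 21 and 60, make 6 groups of 2 libraries. The labels give no sorting marker, no sex or age, no pooling, no time at which the sham cells were taken and no statement that replicates were separate animals. P-values therefore measure only the spread between these libraries, which may be technical.

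Cells build cholesterol from acetyl-CoA through mevalonate, farnesyl diphosphate, squalene and lanosterol, and a last series of steps turns lanosterol into cholesterol. SREBP2, the product of Srebf2, is held in the endoplasmic reticulum by SCAP and INSIG proteins when sterols are abundant, and is cut and moves to the nucleus when they are scarce, where it activates the genes of this pathway. The adult brain makes its own cholesterol, much of it in glia, and astrocytes pass cholesterol to neurons on lipoproteins that carry apolipoprotein E.

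The 7 genes were chosen under the description of an early rise and a later fall, and they did not all share it. Sqle, Hsd17b7, Lss and Fdft1 had their highest level at day 1 in both replicates, whereas Hmgcs1 and Srebf2 were highest in sham in both, and Dhcr7 was highest at day 7 in replicate 1 and at day 1 in replicate 2. Of all 15635 genes tested, 9.11% were highest at day 1 in both replicates.

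Promoter sequence was available from RefSeq for 5 of the 7 genes (Hmgcs1, Lss, Hsd17b7, Dhcr7 and Srebf2), in 7 windows of 300 bases each on GRCm38.p6. The windows were searched on both strands for the sterol regulatory element TCACNCCAC, to which SREBP proteins bind, and for CCAAT, the box of the factor NF-Y that commonly accompanies it. The sterol regulatory element occurred in 1 of the 7 windows, that of Hmgcs1, and in 1.24% of 32851 promoters of the same length. CCAAT occurred in 5 of the 7 windows, at least 1 for each of the 5 genes, against 37.4% of all promoters. GGGCGG, the box of Sp1, was in 6 of the 7 windows against 35.7%, and the E-box CACGTG in 2 of the 7 against 7.15%. None of these matches overlapped a match of another motif in the 7 windows. Below are the 250 bases before the start site of Hmgcs1 (chr13:119690101-119690350, plus strand), which holds the sterol regulatory element, of Hsd17b7 (chr1:169969206-169969455, minus strand), the gene with the largest rise at day 1, and of Srebf2 (chr15:82147019-82147268, plus strand), the regulator. Each is written 5′ to 3′ with sterol regulatory element and CCAAT matches in capitals, the latter as ATTGG where it lies on the other strand.
Hmgcs1: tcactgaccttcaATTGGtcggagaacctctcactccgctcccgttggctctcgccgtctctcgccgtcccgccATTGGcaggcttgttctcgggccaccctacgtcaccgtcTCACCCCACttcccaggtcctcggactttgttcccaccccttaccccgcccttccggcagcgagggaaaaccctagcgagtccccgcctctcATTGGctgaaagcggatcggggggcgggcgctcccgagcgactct
Hsd17b7: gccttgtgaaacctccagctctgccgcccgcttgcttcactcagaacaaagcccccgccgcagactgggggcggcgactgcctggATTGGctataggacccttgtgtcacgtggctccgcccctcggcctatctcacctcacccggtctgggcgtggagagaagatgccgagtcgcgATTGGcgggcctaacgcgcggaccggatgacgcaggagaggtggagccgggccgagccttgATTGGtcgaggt
Srebf2: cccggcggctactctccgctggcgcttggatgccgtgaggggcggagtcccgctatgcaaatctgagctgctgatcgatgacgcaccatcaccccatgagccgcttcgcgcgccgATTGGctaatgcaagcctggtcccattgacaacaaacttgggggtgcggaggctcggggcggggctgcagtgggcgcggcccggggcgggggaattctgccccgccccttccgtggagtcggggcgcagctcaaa
With the start site counted as 0, the sterol regulatory element of Hmgcs1 spans -137 to -129. The stretch shown for Hmgcs1 holds 3 CCAAT matches, at -237, -176 and -45, and a further match lies 10 bases past the start site. Hsd17b7 has 3, at -165, -73 and -12, and Srebf2 has 1, at -135. A match is a description of the letters and shows no binding.

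Depth differed by replicate number. Replicate 1 libraries held 13006008 to 16575045 counts and replicate 2 libraries 97056596 to 156128922, which is 6.30 to 9.63 times as many in each group. Levels are given as CPM, the share of a library's counts scaled to a fixed total, after TMM factors, always for replicate 1 and then replicate 2, and as mean ± SD with n = 2. The 12 astrocyte markers summed to 0.877% and 0.686% of counts in the sham replicates, 0.462% and 1.36% at day 1, and 0.415% and 0.891% at day 3. At days 1 and 3 replicate 1 was thus below its sham and replicate 2 above. Their mean was 0.781% in sham, 0.144% at day 7 and 0.296% to 0.304% at days 21 and 60. Markers of fibroblasts summed to 0.00734% in sham and 14.0% at day 7, and at day 7 they took 8.16% and 19.9% of the counts of the replicates. Markers of oligodendrocytes, cells with high cholesterol synthesis, were at 0.979% in sham and between 0.0698% and 0.187% afterwards, and neuron markers were at 0.547% in sham and between 0.0112% and 0.0827% afterwards. Endothelial markers took 0.129% and 0.243% of counts in sham, 0.615% and 0.513% on day 1, and 0.0478% and 0.0552% on day 7. In bulk RNA from sorted cells, fewer cells of a type and less RNA per cell cannot be told apart, and the part of these shares in the results below was not tested.

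**Figure D1:**
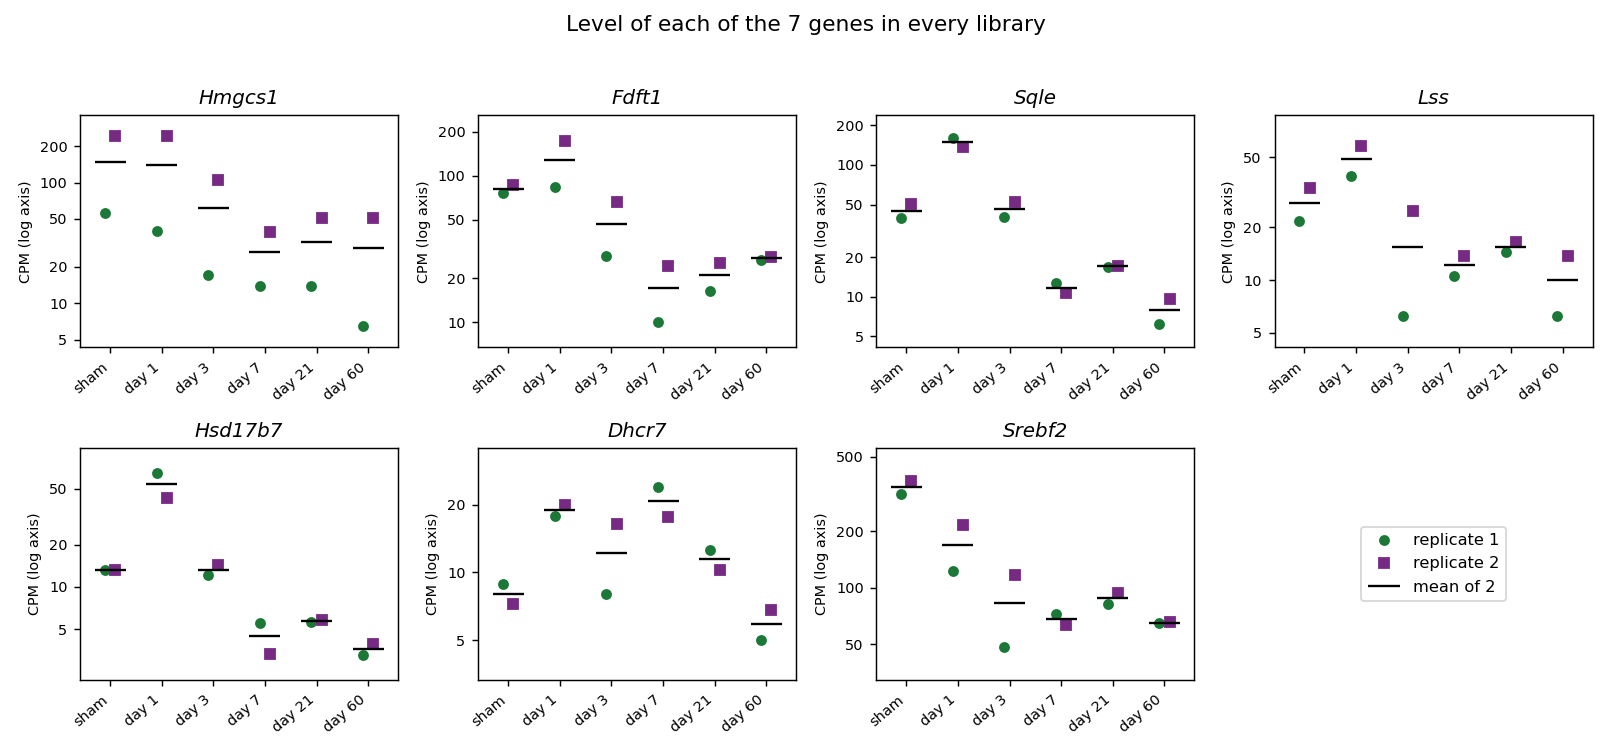
Level of each of the 7 genes in every library, in CPM on a log axis, with 1 panel per gene and groups from sham to day 60 on the horizontal axis; circles are replicate 1, squares replicate 2 and bars the mean of 2. Sqle and Hsd17b7 peak at day 1 in both replicates, Srebf2 is highest in sham, and replicate 2 lies above replicate 1 in all 6 groups for Hmgcs1.

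Hmgcs1 (chromosome 13, 119690379 to 119708260, plus strand of GRCm38) encodes the cytosolic HMG-CoA synthase, an early enzyme of the mevalonate steps. Sham held 55.6 and 242 CPM, day 1 held 39.4 and 241, and day 3 held 17.0 and 106. The day 7 libraries held 14.0 and 38.9 CPM, those of day 21 13.9 and 50.7, and those of day 60 6.47 and 50.6. Within each replicate the level at days 7, 21 and 60 was below sham and day 1, but replicate 2 was 2.78 to 7.81 times replicate 1 in every group. Replicate 2 exceeded replicate 1 in all 6 groups for 13.6% of genes tested. With that gap left in the error, Hmgcs1 passed the test in none of the 10 comparisons: at day 7 its log2 fold change against sham was -2.49 ± 1.29 (SE, edgeR quasi-likelihood test, adjusted p = 0.146), and at day 60 it was -2.38 ± 1.29 (adjusted p = 0.185). Without 1 library the day 7 value ran from -3.41 to -1.07 and the day 60 value from -4.52 to -0.96, the lowest without replicate 2 of the time itself. With the replicate number as a block, it fell against sham at day 3 by 1.43 ± 0.35 on the log2 scale (adjusted p = 0.0078), at day 7 by 2.28 ± 0.36 (adjusted p = 0.000463), at day 21 by 2.12 ± 0.36 (adjusted p = 0.000999) and at day 60 by 2.62 ± 0.37 (adjusted p = 0.000375). At day 1 the blocked value was -0.24 ± 0.34 (adjusted p = 0.598). An exon of an antisense gene, Gm48342, overlaps Hmgcs1 by 458 bases on the opposite strand, and the strand setting of the counting is not given in the sources used here.

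Fdft1 (chromosome 14, 63145150 to 63179578, minus strand) encodes squalene synthase, which commits farnesyl diphosphate to sterols. The level was 76.0 and 86.1 CPM in sham, day 1 had 84.3 and 173, and day 3 had 28.2 and 65.6. In the later groups it was 10.1 and 24.0 CPM (day 7), 16.3 and 25.5 (day 21) and 26.6 and 28.0 (day 60). Sham and day 1 overlapped, and every library from days 3 to 60 lay below both sham libraries. Fdft1 fell against sham at day 7 by 2.24 ± 0.56 on the log2 scale (4.74-fold, adjusted p = 0.00868) and at day 21 by 1.95 ± 0.55 (3.87-fold, adjusted p = 0.0214). The call at day 7 was lost without day 7 replicate 1 (adjusted p = 0.0663), and that at day 21 without either sham library (0.0588 and 0.0721) or either day 21 library (0.127 and 0.0639). At day 60 the value was -1.57 ± 0.54 (adjusted p = 0.0502), and with the replicate block it passed (-1.56, adjusted p = 0.00459), as it did at day 3 (-0.91, adjusted p = 0.049). Exons of Ctsb, which encodes the lysosomal protease cathepsin B, overlap Fdft1 by up to 774 bases on the opposite strand. Ctsb went the other way, with 366 ± 3.41 CPM in sham and 10630 ± 323 at day 7, and the share of its reads in the Fdft1 counts was not tested.

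Sqle (chromosome 15, 59315077 to 59331192, plus strand) encodes squalene epoxidase, a rate-limiting oxygen-dependent step. Sham libraries stood at 39.7 and 50.2 CPM, day 1 libraries at 159 and 137, and day 3 libraries at 40.4 and 52.5. Those of day 7 had 12.8 and 10.7 CPM, followed by 16.9 and 17.1 on day 21 and 6.19 and 9.63 on day 60. Both day 1 libraries were above every other library, sham and day 3 overlapped, and all libraries of days 7, 21 and 60 were below all of sham. Sqle rose at day 1 by 1.72 ± 0.32 on the log2 scale, or 3.29-fold (adjusted p = 0.00464). It fell against sham 3.85-fold at day 7 (log2 -1.94 ± 0.32, adjusted p = 0.00107), 2.65-fold at day 21 (log2 -1.41 ± 0.32, adjusted p = 0.00819) and 5.66-fold at day 60 (log2 -2.50 ± 0.33, adjusted p = 0.000584). Day 3 did not differ from sham by more than its error (0.05 ± 0.31). Of these 4 calls only that of day 21 was lost without a single library, sham replicate 2 (adjusted p = 0.0511) or day 21 replicate 2 (0.0615).

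Lss (chromosome 10, 76531588 to 76557138, plus strand) encodes lanosterol synthase, which closes the sterol ring. Lss measured 21.7 and 33.5 CPM in sham, 39.3 and 58.1 on day 1, and 6.20 and 24.8 on day 3. It measured 10.6 and 13.8 CPM on day 7, 14.4 and 16.6 on day 21, and 6.24 and 13.8 on day 60. The day 1 libraries lay above both sham libraries, and the libraries of days 7, 21 and 60 lay below them. None of the differences passed the test: the value was 0.82 ± 0.61 at day 1 (adjusted p = 0.331), -1.18 ± 0.61 at day 7 (adjusted p = 0.144) and -1.46 ± 0.62 at day 60 (adjusted p = 0.0973). With the replicate block Lss passed at day 7 (-1.16, adjusted p = 0.0353) and day 60 (-1.52, adjusted p = 0.0133). An antisense gene, 4930483K19Rik, overlaps its exons by 150 bases on the opposite strand.

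Hsd17b7 (chromosome 1, 169949535 to 169969241, minus strand) encodes the 3-ketosteroid reductase that acts during removal of the methyl groups at C4 of the sterol. Replicates 1 and 2 had 13.3 and 13.1 CPM in sham, 65.1 and 43.1 on day 1, and 12.2 and 14.4 on day 3. They had 5.58 and 3.33 CPM on day 7, 5.66 and 5.8 on day 21, and 3.27 and 3.92 on day 60. The order was that of Sqle: day 1 stood above all others, day 3 overlapped sham, and the last 3 times lay below sham in every library. Hsd17b7 rose at day 1 by 2.04 ± 0.39 on the log2 scale, or 4.10-fold (adjusted p = 0.0049), the largest fold among the 7 genes at that time. It fell against sham 2.98-fold at day 7 (log2 -1.58 ± 0.38, adjusted p = 0.0079), 2.3-fold at day 21 (log2 -1.20 ± 0.38, adjusted p = 0.0336) and 3.65-fold at day 60 (log2 -1.87 ± 0.39, adjusted p = 0.00595). The call at day 7 was lost without day 7 replicate 2 (adjusted p = 0.0798). That at day 21 was lost without sham replicate 1 (0.108), sham replicate 2 (0.0974), day 21 replicate 1 (0.109) or day 21 replicate 2 (0.142), and with plain library totals (0.0763).

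Dhcr7 (chromosome 7, 143823145 to 143848410, plus strand) encodes 7-dehydrocholesterol reductase, the last step of one of the 2 branches to cholesterol. CPM values were 8.90 and 7.21 in sham, 17.8 and 19.97 on day 1, and 8.04 and 16.4 on day 3. They were 23.9 and 17.6 on day 7, 12.6 and 10.3 on day 21, and 4.98 and 6.78 on day 60. Days 1, 7 and 21 lay above both sham libraries, and day 60 lay below them. Dhcr7 rose at day 7 by 1.37 ± 0.43 on the log2 scale, or 2.58-fold (adjusted p = 0.0259), the time at which Sqle, Hsd17b7 and Fdft1 had fallen. That call was lost without sham replicate 1 (adjusted p = 0.0759), sham replicate 2 (0.13), day 7 replicate 1 (0.135) or day 21 replicate 1 (0.0552), and with plain library totals (0.078). At day 1 the value was 1.23 ± 0.43 (adjusted p = 0.051), and with the replicate block it passed (1.23, adjusted p = 0.0313). At day 60 Dhcr7 was at -0.45 ± 0.42 (adjusted p = 0.449).

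Srebf2 (chromosome 15, 82147181 to 82205379, plus strand) encodes SREBP2, the activator of the pathway. Sham libraries had 316 and 372 CPM, against 123 and 215 on day 1 and 48.4 and 118 on day 3. The remaining libraries had 72.5 and 63.6 CPM (day 7), 82.3 and 93.8 (day 21) and 64.7 and 65.4 (day 60). All 10 libraries after stroke were below both sham libraries, day 1 included. Srebf2 fell against sham at day 3 by 2.05 ± 0.45 on the log2 scale (4.14-fold, adjusted p = 0.00742), at day 7 by 2.34 ± 0.45 (5.05-fold, adjusted p = 0.00242), at day 21 by 1.96 ± 0.45 (3.90-fold, adjusted p = 0.00843) and at day 60 by 2.40 ± 0.46 (5.28-fold, adjusted p = 0.00395). The day 21 call was lost without day 21 replicate 1 (adjusted p = 0.0624) or day 21 replicate 2 (0.0512). At day 1, when Sqle and Hsd17b7 were highest, Srebf2 was at -1.02 ± 0.44 (adjusted p = 0.102), and with the replicate block this passed as a fall (-1.06, adjusted p = 0.0315). Transcript level says nothing of how much SREBP2 protein was cut and nuclear.

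**Figure D2:**
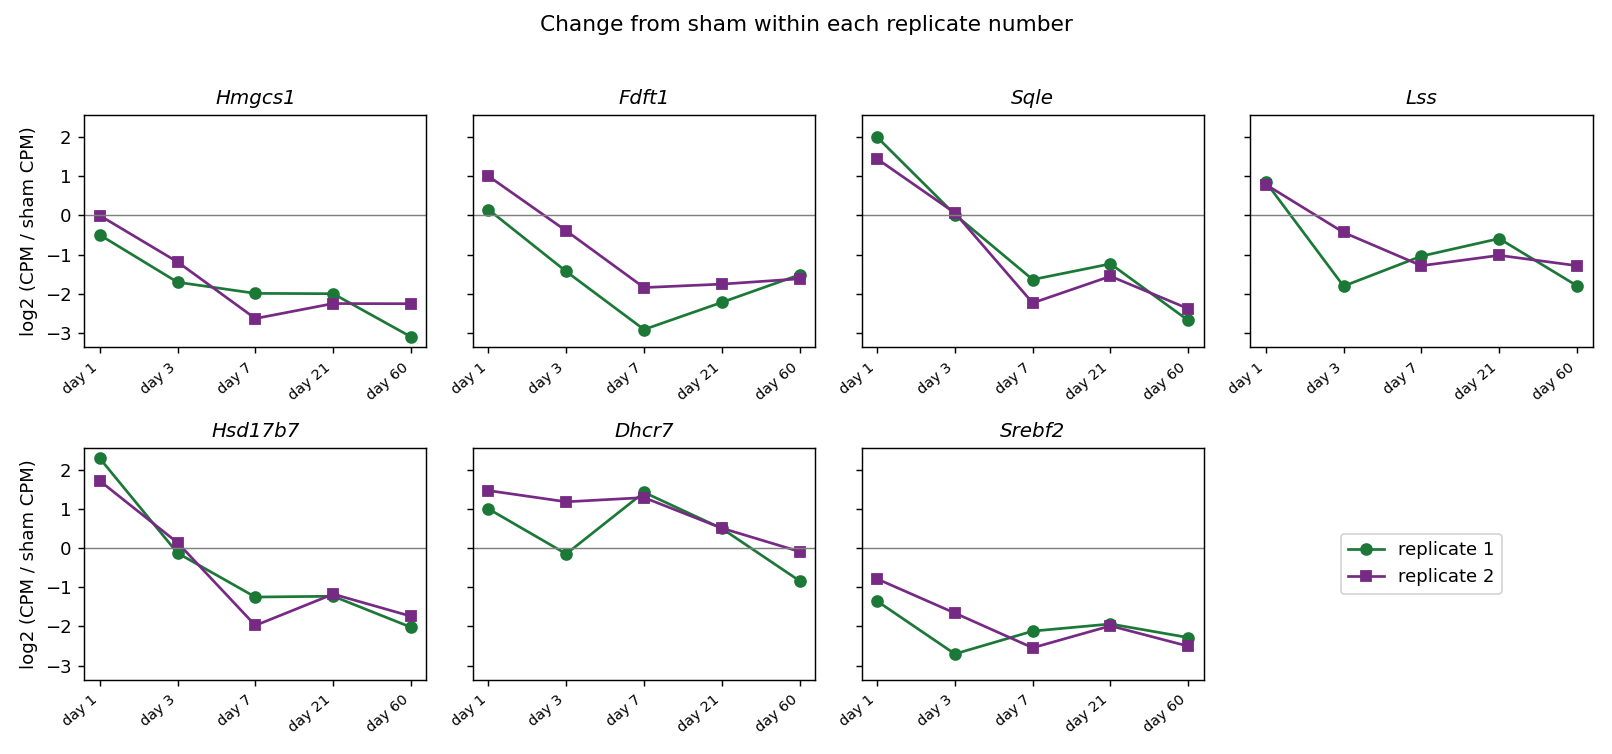
Log2 ratio of CPM at each time to CPM in the sham library of the same replicate number, with 1 panel per gene; circles are replicate 1, squares replicate 2, and the grey line marks no change. The curves of the replicates run close for Sqle and Hsd17b7, and for Hmgcs1 they lie between -1.99 and -3.10 from day 7 on, although its CPM differed by replicate.

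Counted against sham, 2 of the 7 genes rose and 0 fell at day 1 (Sqle and Hsd17b7), where 30.5% of all genes tested passed, 16.7% as higher. At that time 8 of 8 fibroblast, 4 of 8 endothelial and 4 of 8 macrophage and leukocyte markers rose as well, with medians of 4.56, 1.57 and 2.04. Of 12 astrocyte markers 2 rose and 1 fell. Of other markers, 7 of 8 for neurons and 4 of 10 for oligodendrocytes fell. The part of these shifts in the rise was not tested. At day 3, 0 of the 7 genes rose and 1 fell (Srebf2), with 32.2% of genes passing and 14.2% lower. At day 7, 1 rose (Dhcr7) and 4 fell (Sqle, Hsd17b7, Fdft1 and Srebf2), with 43% passing, 23.2% as higher and 19.8% as lower. The same 4 genes fell at day 21 and 3 of them (Sqle, Hsd17b7 and Srebf2) at day 60, when 33.2% and 31.5% of genes passed and 15.4% and 14.8% were lower. Over days 1, 3, 7, 21 and 60 the median log2 fold changes of the 7 were 0.82, -0.79, -1.94, -1.41 and -1.87, while those of all genes tested lay between 0.01 and 0.16. With the replicate block 3 rose and 1 fell on day 1, 0 rose and 3 fell on day 3, and 0 rose and 6 fell on day 60, when 43.2%, 43.9% and 43.7% of all genes passed. By the libraries alone, both day 1 libraries lay above both sham libraries in 4 of the 7 genes (Sqle, Hsd17b7, Lss and Dhcr7), as in 33.8% of all genes. Both libraries lay below both of sham in 2 of 7 genes on day 3 (31.2% of all genes), 6 of 7 on day 7 (36%), 6 of 7 on day 21 (35.4%) and 7 of 7 on day 60 (34.3%). These 5 comparisons share the sham libraries. As the 7 genes were listed under an early rise and a later fall, the counts describe that pattern and are no independent support of it.

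Comparisons between times have sham on neither side, though the sham libraries were in the fit and in its estimate of spread. From day 1 to day 3, 2 of the 7 genes fell, where 3.57% of genes passed and 0.48% as lower: Sqle by 1.67 ± 0.32 on the log2 scale (3.18-fold, adjusted p = 0.0197) and Hsd17b7 by 2.02 ± 0.38 (4.07-fold, adjusted p = 0.0192). From day 3 to day 7 the same 2 genes fell again, where 6.29% of genes passed and 3.22% as lower: Sqle by 1.99 ± 0.32 (3.97-fold, adjusted p = 0.0133) and Hsd17b7 by 1.59 ± 0.38 (3.01-fold, adjusted p = 0.0385). A fall after day 1 is part of the description under which the genes were listed, so these counts are no independent support of it. These step-by-step calls rested on few libraries. From day 1 to day 3, the call of Sqle was lost without any of the 4 libraries compared (adjusted p 0.0568 to 0.0949) and that of Hsd17b7 without day 1 replicate 1 (0.104), day 3 replicate 1 (0.0778) or day 3 replicate 2 (0.0695). From day 3 to day 7, the call of Sqle was lost without day 7 replicate 1 (0.0922) or day 7 replicate 2 (0.124), and that of Hsd17b7 without any of the sham, day 3, day 7 or day 21 libraries (0.0613 to 0.244). With only the libraries of the 2 times in the fit, 0 of the 7 genes and 0 of all genes passed the edgeR test in either step, with 1452 and 3243 genes at an unadjusted p under 0.05. With the replicate block, where 8.4% of genes passed, 4 of 7 fell from day 1 to day 3, Lss (-1.81, adjusted p = 0.0261) and Fdft1 (-1.48, adjusted p = 0.0253) beside the other two. From day 3 to day 7 the block called 3 of 7 as lower, Fdft1 (-1.46, adjusted p = 0.017) beside Sqle and Hsd17b7, where 18.2% of genes passed.

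After day 7 no step passed. From day 7 to day 21, 0 of the 7 genes passed, where 0.441% of all genes did, and the 7 values ran from -0.86 to 0.54. From day 21 to day 60, 0 of the 7 genes and 0% of all genes passed the edgeR test, although 847 genes had an unadjusted p under 0.05 and DESeq2 called 115. Sqle was lower at day 60 than at day 21 in both libraries (log2 -1.10 ± 0.32, adjusted p = 0.673).

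The mean of days 21 and 60 was set against the mean of days 1 and 3, since this contrast has 4 libraries on each side and sham on neither. The sham libraries were still in the fit and in its estimate of spread. The genes were listed under an early rise and a later fall, so the contrast describes a pattern they were chosen for and is no independent support of it. All 7 genes had negative values, with a median of -1.61 against -0.02 over all genes, and 3 of 7 fell, where 16.9% of genes passed and 8.15% as lower. Sqle fell by 2.84 ± 0.24 on the log2 scale, or 7.14-fold (adjusted p = 0.000122), and Hsd17b7 by 2.56 ± 0.28, or 5.90-fold (adjusted p = 0.000436). Fdft1 fell by 1.70 ± 0.39, or 3.25-fold (adjusted p = 0.0151), a call lost without day 21 replicate 1 (adjusted p = 0.0731) or day 60 replicate 1 (0.0548). For these 3 genes all 4 late libraries lay below all 4 early libraries, which held for 7.5% of genes tested. Hmgcs1 (-1.61 ± 0.89, adjusted p = 0.245), Lss (-1.14 ± 0.43, adjusted p = 0.0982) and Dhcr7 (-0.89 ± 0.30, adjusted p = 0.0681) did not pass, and Srebf2 was at -0.65 ± 0.31 (adjusted p = 0.177). With the replicate block 6 of 7 fell, where 29% of genes passed: Hmgcs1 (-1.53, adjusted p = 0.00147), Lss (-1.08, adjusted p = 0.0196) and Dhcr7 (-0.88, adjusted p = 0.0402) joined the 3, and Srebf2 did not (-0.59, adjusted p = 0.0992). In the same contrast 6 of 8 fibroblast markers rose. Of 12 astrocyte markers 3 fell and 1 rose (Gjb6, 1.26). Of 8 endothelial markers 2 fell (Pecam1, -2.35, and Cdh5, -1.50), with a median of -0.95 over the 8. The part of these markers in the values above was not tested.

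Tested over all 6 groups at once, 5 of the 7 genes differed among groups, where 42.7% of all genes did. These were Sqle (adjusted p = 0.000129), Hsd17b7 (adjusted p = 0.000245), Srebf2 (adjusted p = 0.00481), Fdft1 (adjusted p = 0.00684) and Dhcr7 (adjusted p = 0.0322). Lss (adjusted p = 0.0541) and Hmgcs1 (adjusted p = 0.289) did not pass. Because the genes were listed for a change over these groups, the count of 5 is no independent result.

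Levels between genes were compared as CPM per kilobase of exon. In sham the order was Srebf2 (47.8 ± 5.52 CPM per kilobase), Hmgcs1 (32.3 ± 28.6), Fdft1 (19.2 ± 1.69), Sqle (8.11 ± 1.34), Hsd17b7 (2.58 ± 0.0218), Lss (2.56 ± 0.778) and Dhcr7 (1.38 ± 0.206). Hsd17b7 and Lss did not differ beyond their spread, and Hmgcs1 spanned its neighbours. At day 1 Hmgcs1 (30.5 ± 31.1), Fdft1 (30.4 ± 14.8), Sqle (26.7 ± 2.83) and Srebf2 (23.6 ± 9.06) lay within one another's spread, followed by Hsd17b7 (10.6 ± 3.04), Lss (4.51 ± 1.23) and Dhcr7 (3.25 ± 0.259). The spread of Hmgcs1 reached below Hsd17b7. By day 60 Hsd17b7, at 0.704 ± 0.0911 CPM per kilobase, was the lowest of the 7, next to Lss (0.928 ± 0.494) and Dhcr7 (1.01 ± 0.218) and within the spread of Lss.

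The wider pathway was followed in 20 enzyme genes from acetyl-CoA to cholesterol, the 6 enzymes above among them. Those 6 were listed under an early rise and a later fall, so counts over the 20 are in part fixed by that choice. At day 1, 6 of 20 rose and 0 fell, where 16.7% of all genes rose, with a median of 0.82 against 0.06 over all genes. Of the 14 that are not among the 7 genes, 4 rose and 0 fell, with a median of 0.75. At this time 8 of 8 fibroblast, 4 of 8 endothelial and 4 of 8 macrophage and leukocyte markers rose too. Of 12 astrocyte markers 2 rose and 1 fell. The part of these markers in these counts was not tested. Among the 6 enzyme genes that rose, beside Sqle and Hsd17b7, were Lbr (2.2 ± 0.43, adjusted p = 0.00545) and Ebp (1.70 ± 0.28, adjusted p = 0.00299), a sterol C14 reductase and the sterol isomerase, whose calls held without each library in turn. In 14 of the 20 genes, or 70%, day 1 was the highest of the 6 groups in both replicates, against 9.11% of all genes. Sqle, Hsd17b7, Lss and Fdft1 are 4 of those 14 and were listed under an early rise. At day 3 only Ebp (1.89, adjusted p = 0.00124) and Lbr (1.28, adjusted p = 0.0394) still passed as higher and 0 were lower, where 32.2% of all genes passed. The call of Lbr was lost without any 1 of 7 libraries (up to 0.203). With the replicate block 2 rose and 2 fell, where 43.9% of genes passed.

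**Figure D3:**
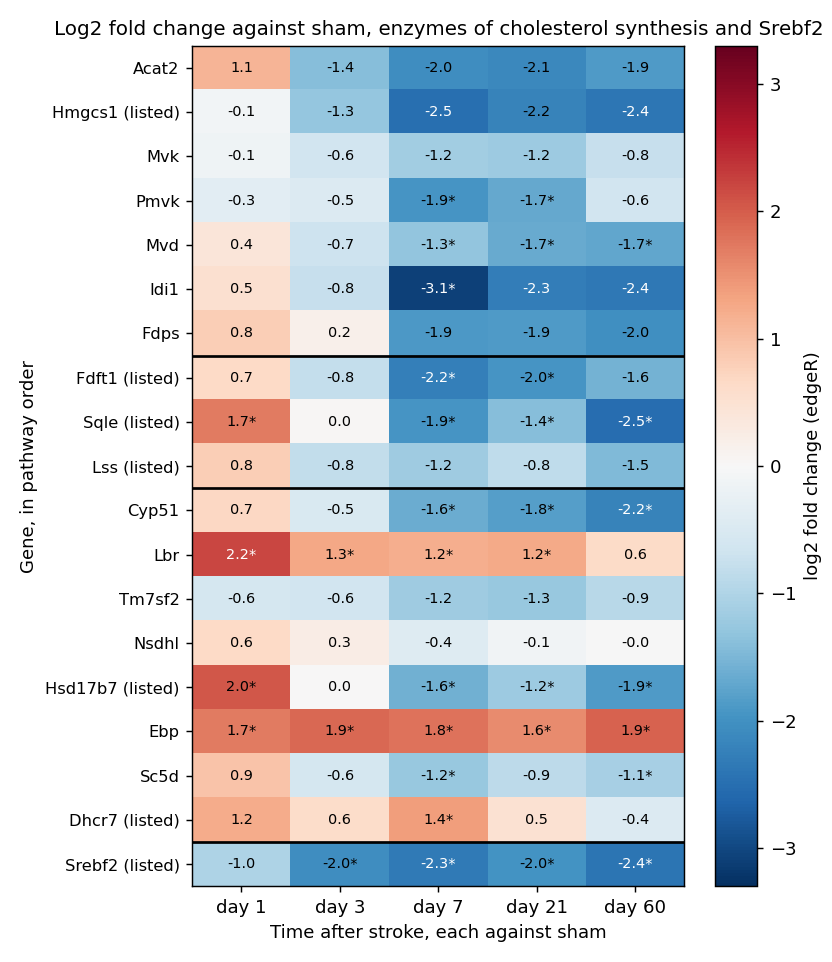
Log2 fold change against sham (edgeR) of 18 enzymes of cholesterol synthesis in pathway order and of Srebf2, for days 1, 3, 7, 21 and 60; red is higher, blue lower, an asterisk marks adjusted p under 0.05, and lines separate mevalonate steps, squalene and ring closure, lanosterol to cholesterol, and Srebf2. Most rows turn from red or pale at day 1 to blue at day 7 and stay blue, while Ebp is red throughout, from 1.56 to 1.94. Lbr passed as higher at days 1, 3, 7 and 21.

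At day 7, 3 of the 20 enzyme genes rose and 9 fell, where 23.2% of all genes rose and 19.8% fell, with a median of -1.44 against 0.13 over all genes. The falls were 3 of 8 genes of the mevalonate steps, 2 of 3 of squalene and ring closure, and 4 of 9 from lanosterol to cholesterol. In the mevalonate steps Idi1, the isopentenyl diphosphate isomerase, was at 15.3 and 32.0 CPM in sham and 2.22 and 3.28 at day 7 (-3.09 ± 0.85, adjusted p = 0.0148), a call lost without sham replicate 2 or either day 7 library (adjusted p up to 0.0908). Pmvk, phosphomevalonate kinase, fell by 1.94 ± 0.41 (adjusted p = 0.00386), and Mvd, mevalonate diphosphate decarboxylase, by 1.31 ± 0.31 (adjusted p = 0.00628, and 0.0508 without day 7 replicate 1). After lanosterol, Cyp51, the C14 demethylase, went from 113 and 112 CPM to 36.9 and 35.4 (-1.64 ± 0.34, adjusted p = 0.00324). Fibroblast markers took 14.0% of counts in these libraries, and their part in the falls was not tested. Ebp was higher instead, with 14.8 and 14.3 CPM in sham and 45.6 and 55.0 at day 7 (1.79 ± 0.28, adjusted p = 0.00077), and it stayed higher at day 21 (1.56 ± 0.28, adjusted p = 0.00257) and day 60 (1.94 ± 0.28, adjusted p = 0.000995). Lbr rose too, from 24.7 and 32.0 CPM in sham to 67.2 and 63.1 at day 7 (adjusted p = 0.0392). That call was lost without any 1 of 6 libraries (up to 0.183). Dhcr7 was the other enzyme gene that rose at day 7.

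On day 21, 2 of the 20 rose and 7 fell, where 33.2% of all genes passed and 15.4% were lower. On day 60 the counts were 1 and 6, where 31.5% of all genes passed and 14.8% were lower. The medians of the 20 were -1.33 and -1.46. Cyp51 fell by 1.83 ± 0.34 at day 21 (adjusted p = 0.00308) and by 2.21 ± 0.34 at day 60 (adjusted p = 0.00141). With the replicate block 13 fell at day 21 and 11 at day 60, where 46.2% and 43.7% of genes passed. In the contrast of late with early times all 20 values were negative, with a median of -1.38, and 10 fell, where 8.15% of all genes did. Of the 14 that are not among the 7 genes, 7 fell with a median of -1.20, among them Cyp51 (-2.12 ± 0.24, adjusted p = 0.000533) and Mvd (-1.53 ± 0.22, adjusted p = 0.00159). Without day 21 replicate 1 the count of 10 was 6. Acat2, the acetoacetyl-CoA thiolase that opens the pathway, passed in no comparison with sham (1.11 ± 1.24 at day 1, adjusted p = 0.526). It was at 30.0 and 279 CPM in sham and 45.7 and 622 at day 1. Acat3, a near-identical copy of Acat2, was between 0.269 and 1.89 CPM in the replicate 1 libraries and between 114 and 444 CPM in those of replicate 2, and the Acat2 values are uncertain because how the counting divided reads between the copies was not tested.

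As a share of all counts, the 20 enzyme genes together took 0.0703% and 0.110% in sham, 0.141% and 0.242% at day 1, and 0.0672% and 0.0917% at day 3. The later libraries gave 0.0333% and 0.0320% (day 7), 0.0424% and 0.0425% (day 21) and 0.04% and 0.0413% (day 60). Both day 1 libraries were above both sham libraries, and all 6 libraries of the last 3 times were below every earlier library. These shares are of plain library totals, without TMM factors. They include the uncertain Acat2, with 29040 counts in sham replicate 2 and 66959 in day 1 replicate 2. Fibroblast markers took 8.16% and 19.9% of counts at day 7, and their part in these shares was not tested.

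Other genes of the SREBP machinery moved in both directions. Of 7 regulators 1 rose (Srebf1, 1.51 ± 0.38, adjusted p = 0.0149) and 0 fell on day 1, and on day 3 Srebf2 was the 1 that fell. That call of Srebf1 was lost without sham replicate 1, day 1 replicate 1 or day 1 replicate 2. The numbers that rose and fell were 2 and 2 on day 7, 3 and 1 on day 21, and 3 and 2 on day 60. Of all genes 16.7% rose on day 1, 14.2% fell on day 3, and 43%, 33.2% and 31.5% passed on days 7, 21 and 60. Counts among 7 genes are too small to set apart from these shares. Srebf1, which encodes SREBP1 and is better known for fatty acid synthesis, was at 37.9 and 57.7 CPM in sham and 186 and 237 at day 7. It rose by 2.14 ± 0.39 at day 7 (adjusted p = 0.00166), 2.35 ± 0.39 at day 21 (adjusted p = 0.00182) and 1.99 ± 0.39 at day 60 (adjusted p = 0.00445), opposite in sign to Srebf2 at each time. Mbtps1, which encodes the site-1 protease that cuts SREBPs and other membrane-bound factors, went from 45.9 and 83.4 CPM in sham to 359 and 449 at day 7 (2.64 ± 0.48, adjusted p = 0.00173). Insig1, itself a target of SREBP2 that retains SCAP, was at 32.6 and 22.2 CPM in sham. At day 1 it was at 53.1 and 47.1 CPM and did not pass. It fell at day 7 (-1.17 ± 0.41, adjusted p = 0.0434) and day 60 (-1.42 ± 0.42, adjusted p = 0.0268). The call of Insig1 at day 7 was lost without sham replicate 1, sham replicate 2, day 7 replicate 2 or day 21 replicate 2 (adjusted p up to 0.252), and that at day 60 without sham replicate 1 or day 60 replicate 1 (up to 0.146). Insig2, the other retention protein, rose late against early by 1.20 ± 0.23 (adjusted p = 0.00678), while Insig1 fell by 0.996 ± 0.292 (adjusted p = 0.0426, lost without any 1 of 10 libraries, up to 0.149).

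Of the genes of sterol transport, Tmem97, whose product regulates the sterol transporter NPC1, was highest in the first days. Its level was 8.54 and 3.95 CPM in sham, 37.0 and 21.3 on day 1, and 28.8 and 26.1 on day 3. On day 60 it was 10.2 and 4.39 CPM, which overlapped sham. Tmem97 rose at day 1 by 2.23 ± 0.58 on the log2 scale (adjusted p = 0.017), a call lost without sham replicate 2 or day 1 replicate 1 (adjusted p up to 0.114). Late against early it fell by 1.88 ± 0.41 (adjusted p = 0.0123, and 0.0589 without day 21 replicate 2). Stard4, a cytosolic sterol carrier, fell in the same contrast by 1.44 ± 0.39 (adjusted p = 0.033), a call lost without any 1 of 6 libraries (up to 0.123).

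**Figure D4:**
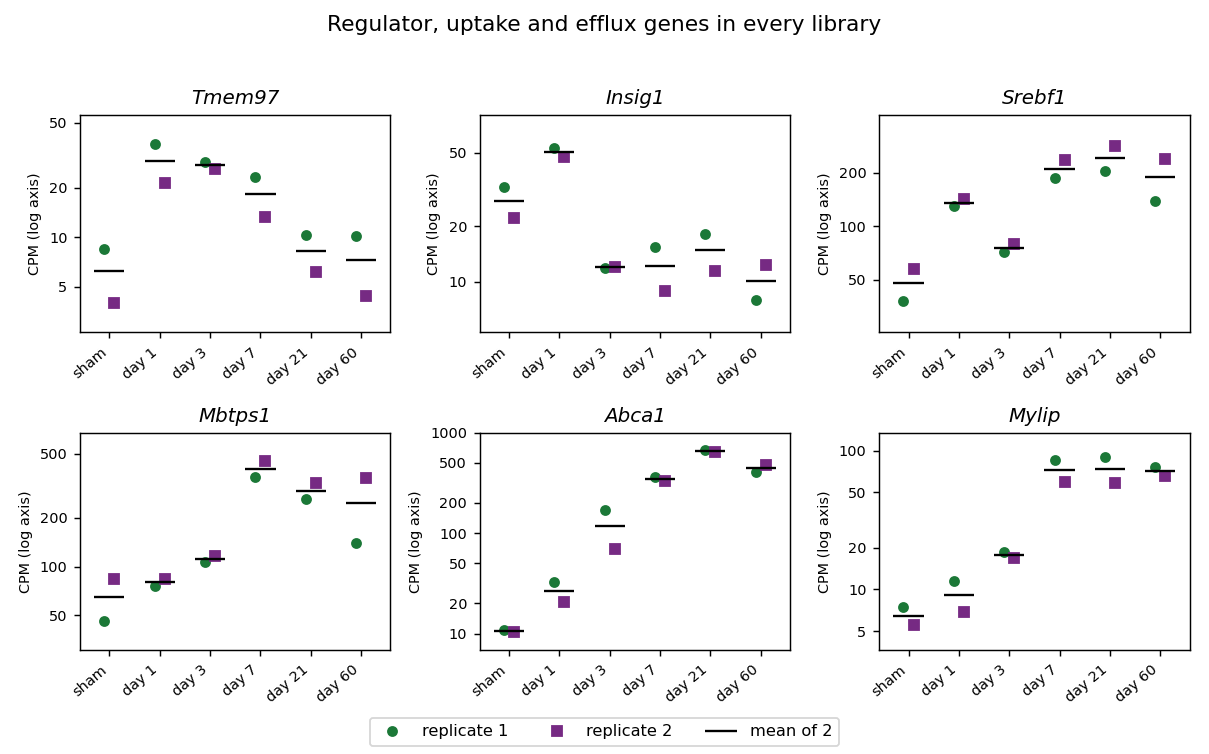
CPM on a log axis in every library for Tmem97, Insig1, Srebf1, Mbtps1, Abca1 and Mylip, with groups from sham to day 60; circles are replicate 1, squares replicate 2 and bars the mean of 2. Insig1 is highest at day 1 and Tmem97 is above sham at days 1, 3 and 7 in both replicates, while Srebf1, Mbtps1, Abca1 and Mylip are higher at days 7, 21 and 60 than in sham in every library.

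Genes of cholesterol efflux, esterification and turnover, many of them targets of the sterol-sensing LXR receptors, were more often called higher than lower at each time. Of 12 such genes 4 rose and 0 fell on day 1, 7 rose and 1 fell on days 3 and 7 each, and 8 rose and 1 fell on days 21 and 60 each. Of all genes tested, 30.5% passed on day 1, 32.2% on day 3, 43% on day 7, 33.2% on day 21 and 31.5% on day 60. Between 53.2% and 56% of those were higher. The median of the 12 genes was 3.02 at day 21, against 0.07 over all genes. Abca1, which encodes the transporter that loads cholesterol onto apolipoproteins, was at 10.9 and 10.4 CPM in sham and reached 667 and 642 CPM on day 21. It rose at each time, up to 5.94 ± 0.52 on the log2 scale at day 21 (adjusted p = 7.18e-05), and on day 1 by 1.33 ± 0.43 (adjusted p = 0.0401, lost without any 1 of 9 libraries, up to 0.229). Mylip, a standard LXR target, rose at day 21 by 3.52 ± 0.40 (adjusted p = 0.000261), and Soat1, which esterifies cholesterol for storage, by 3.81 ± 0.38 (adjusted p = 0.000124). Nr1h3, which encodes LXR alpha, rose from 7.41 and 6.18 CPM in sham to 99.2 and 81.6 at day 60 (3.74 ± 0.34, adjusted p = 8.55e-05). Ch25h, the cholesterol 25-hydroxylase, had its peak at day 1 (282 and 77.6 CPM against 9.56 and 4.27 in sham; 4.71 ± 0.84, adjusted p = 0.00395). The gene that fell was Cyp46a1, the 24-hydroxylase through which neurons clear cholesterol (-5.10 ± 0.77 at day 7, adjusted p = 0.000626), and all 8 neuron markers fell at that time as well. Macrophages and fibroblasts also express many LXR targets. Macrophage and leukocyte markers took 0.0018% of counts in sham, with 2 of 8 at 0, and 0.401% at day 7, and their part in these rises was not tested.

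**Figure D5:**
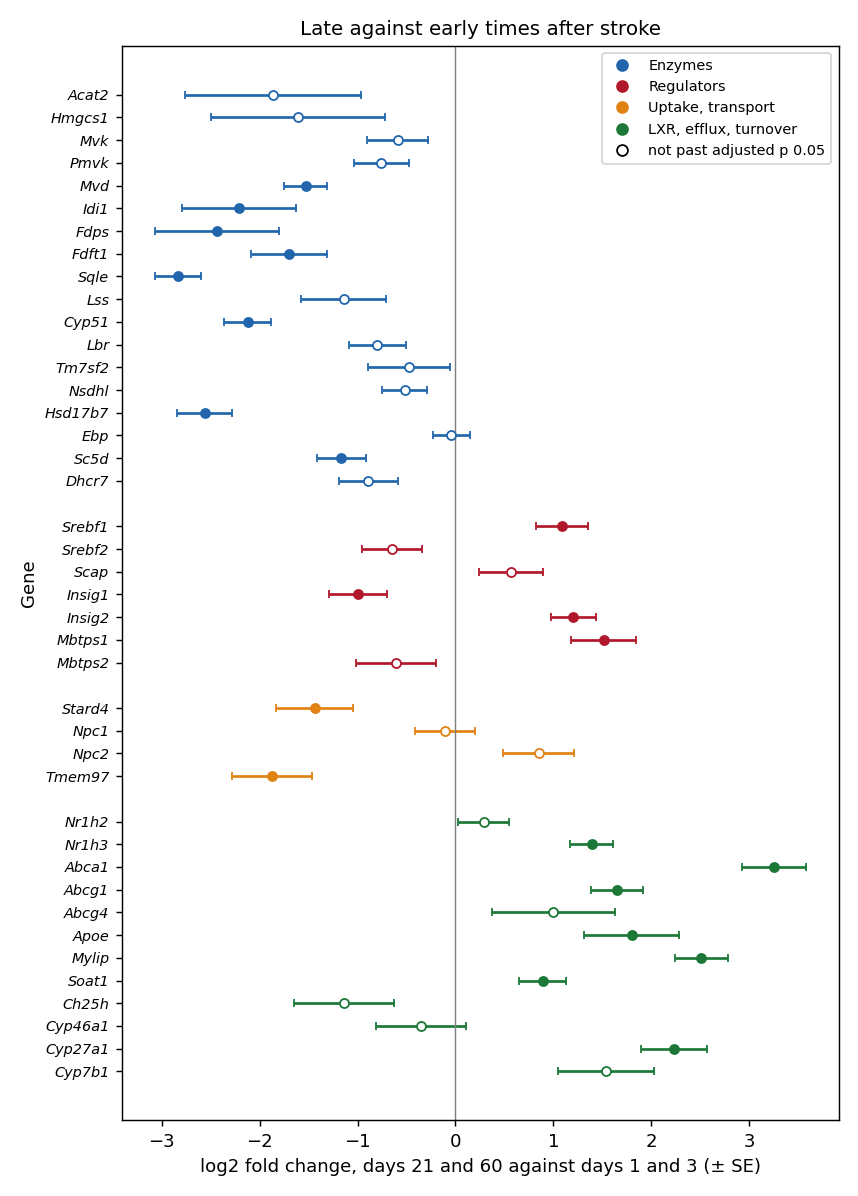
Log2 fold change of days 21 and 60 against days 1 and 3, with its standard error, for 18 enzymes in pathway order, 7 regulators, 4 genes of uptake and transport and 12 of LXR response, efflux and turnover; filled points passed an adjusted p of 0.05 and open points did not. All 18 enzymes shown lie left of 0, from -2.84 for Sqle to -0.04 for Ebp, while Abca1 lies at 3.25.

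The genes most like the mean profile of the 7 were found by the root mean square difference of row-centred log2 CPM over the 12 libraries, among 4868 genes outside the lists that differed among groups. The closest were Mrps18b (0.367), Cdh2 (0.385), Wdr12 (0.388), Smyd5 (0.407) and Adk (0.416). On the same measure the 7 genes themselves ran from 0.335 for Lss to 0.947 for Dhcr7, so 5 outside genes were nearer to the mean than 6 of the 7. Mrps18b, which encodes a protein of the mitochondrial ribosome, was at 17.5 ± 2.46 CPM in sham, 38.9 ± 7.05 at day 1 and 9.15 ± 0.795 at day 60. Adk, which encodes adenosine kinase, was at 210 ± 21.9 CPM in sham, 235 ± 86.9 at day 1 and 60.5 ± 7.92 at day 21.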

How the data were processed

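Cells of 12 samples were sequenced as bulk RNA, 2 libraries in each of 6 groups. The authors deposited raw counts per gene, whole numbers with no normalization, in a table of 15774 genes and in 12 sample files, of which 189288 of 189288 values were identical. Per the submitters' processing notes, the build was mm10 and the tools included HTSeq 0.6.1 and Bowtie2 2.3.4.2; their roles, the annotation and the strand setting are not given in the sources used here.

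Counts were tested with edgeR 4.0.16 in R 4.3.3 (limma 3.58.1). Genes passing filterByExpr with a minimum count of 10 (15635) entered 1 quasi-likelihood fit of all 12 libraries with the group as the only term and TMM scaling. P-values were adjusted over all genes tested by the method of Benjamini and Hochberg, with a threshold of 0.05. SE is the size of the log2 fold change divided by the square root of F. CPM used TMM library sizes and log2 CPM a prior count of 2. There were 6 residual degrees of freedom and the median biological coefficient of variation was 0.408. TMM factors ran from 0.689 to 1.22.

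Replicate numbers come from the labels. Differences between replicates 2 and 1 correlated between groups at 0.319 to 0.713, above 0.1 in 15 of 15 pairs of groups, so the numbers were taken to pair the libraries, and the blocked fit, with replicate as a further term, is given where it changes a call of the 7 genes.

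The alternatives were DESeq2 1.42.0, its size factors in edgeR, plain library totals, no count filter, the replicate block, only the groups compared, each library left out in turn and, chosen after seeing the data, both day 7 libraries left out. The edgeR script was tested on simulated data. The members, the gene lists and the contrast of days 21 and 60 with days 1 and 3 were chosen with earlier results of these data known. Named were all 7 members, from each other pathway list and comparison up to 4 called genes with the largest fold change (with fewer than 2 called, the 2 most abundant), and the 5 genes nearest to the mean profile. Results for some genes of these lists are not reported here, though the counts over the lists include them. Gene positions and exon lengths are from GENCODE on GRCm38; lengths join the exons of all isoforms. Promoters are 250 bases before to 50 after the RefSeq start site. The enzyme Msmo1 of the pathway list of 21 was not used here.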

Additional observations from a re-analysis of the deposited data

Results flagged for a closer look

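A direct test between late and early times, with sham on neither side but in the fit, found a difference in 3 of the 7 genes. They were listed under an early rise and a later fall and the contrast was chosen with that known, so the values describe the pattern and do not support it independently. Days 21 and 60 against days 1 and 3 gave log2 values of -2.84 for Sqle, -2.56 for Hsd17b7 and -1.70 for Fdft1 (edgeR, adjusted p 0.000122, 0.000436 and 0.0151).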

How the results depend on the processing

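The 7 genes gave 22 calls in 10 comparisons, of which 16 held in the 6 other settings that keep every library, 10 without each library in turn, and 10 in all of these and without both day 7 libraries. DESeq2 called more of the 7 genes at day 1 (4), day 60 (5) and late against early (5), and 11 of the 20 enzymes at day 60. It also called more of all genes, 38.8%, 39.9% and 25.4% in these comparisons against 30.5%, 31.5% and 16.9% in the main fit. The replicate block, which pairs libraries by number, called 4 of the 7 at day 1, 3 at day 3, 6 at day 60, 4 from day 1 to day 3 and 6 late against early. It called 4 of the 20 enzymes at day 3, 15 at day 21, 12 at day 60, and 8 in each step from day 1 to day 7 in place of 3. Over all genes the block moved the calls from 558 to 1313 (days 1 and 3), 983 to 2853 (days 3 and 7), 69 to 635 (days 7 and 21), 0 to 21 (days 21 and 60) and 2638 to 4534 (late against early). With only the groups compared, 0 of the 7 passed between days 1 and 3, and 0 between days 3 and 7. At day 3 the enzyme count of 2 was 1 with DESeq2 size factors, 1 with only the groups compared and 1 without both day 7 libraries.

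With DESeq2 size factors and DESeq2, day 3 against sham was -0.065 for Sqle and -0.10 for Hsd17b7, and with plain totals Hmgcs1 at day 1 was 0.17. With 1 library left out, the calls among the 7 ran from 2 to 4 at day 1, 1 to 2 at day 3, 3 to 6 at day 7, 0 to 4 at day 21, 3 to 5 at day 60, 0 to 2 in each step from day 1 to day 7, and 2 to 5 late against early. Among the 20 enzymes they ran from 1 to 3 at day 3, 7 to 14 at day 7, 4 to 11 at day 21 and 6 to 12 late against early. Uncalled values that changed sign without 1 library spanned, against sham, -0.082 to 0.98 (Dhcr7, day 3), -0.081 to 1.04 (Fdft1, day 1), -2.05 to 1.33 (Hmgcs1, day 1), -3.20 to 0.15 (Hmgcs1, day 3), -0.20 to 0.086 (Hsd17b7, day 3) and -0.24 to 0.22 (Sqle, day 3). Between neighbouring times they spanned -3.06 to 0.73, -2.14 to 0.63, -0.93 to 1.21 and -2.32 to 1.04 for Hmgcs1 in order of time, -0.20 to 1.06 for Fdft1 between days 7 and 21, and -1.07 to 0.96 for Lss and -0.84 to 0.48 for Srebf2 between days 3 and 7. The causes were not tested.

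Plain totals raised the share of higher calls among all genes at day 1 (54.6% to 66.5%) and day 3 (56% to 66.4%), lowered it late against early (51.7% to 37.4%) and between days 3 and 7 (48.7% to 15.3%), and raised it between days 7 and 21 (55.1% to 85%). The median of all genes then lay at -0.55 between days 3 and 7. At day 7 in replicate 1, Idi1 rested on 33 counts.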

Other observations

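Fatty acid synthesis is the other arm of the SREBP programme. Of 12 such genes 0 rose and 0 fell at day 1 in the edgeR test, with a median of -0.56, 3 fell at day 3, 5 fell at day 7, and 1 rose and 2 fell at day 21. Of all genes 30.5% passed at day 1, and 14.2%, 19.8% and 15.4% fell at days 3, 7 and 21. Scd1, which encodes a stearoyl-CoA desaturase, was at 185 and 122 CPM in sham and 34.3 and 17.3 at day 7 (-2.58 ± 0.52, adjusted p = 0.00293). It was back at 215 and 103 CPM at day 21, when Sqle, Hsd17b7 and Fdft1 were lower than in sham. Elovl6, a fatty acid elongase, rose late against early by 1.83 ± 0.36 (adjusted p = 0.00745). All of the cholesterol enzymes had negative values in that contrast.

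Other branches use the farnesyl diphosphate of the pathway. Of 6 isoprenoid genes 2 rose and 0 fell at day 1, where 16.7% of all genes rose, a count too small to set apart. Pdss1, a subunit of the enzyme that makes the side chain of coenzyme Q, was at 1.97 and 0.904 CPM in sham, 13.7 and 12.1 at day 1, and 1.60 and 1.52 at day 60. It rose at day 1 by 3.19 ± 0.56 (adjusted p = 0.00357) and fell late against early by 2.48 ± 0.38 (adjusted p = 0.00233), as Sqle and Hsd17b7 did. Late against early, Pdss1 was the 1 gene of the 6 that passed, where 16.9% of all genes passed. That count is also too small to set apart.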
